A study of Mus musculus with 31 samples.

Results

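Red blood cell formation and haem synthesis were followed through 34 genes chosen by name for what their products do: haemoglobin chains, the enzymes of haem synthesis, iron importers, the red cell membrane skeleton, blood group proteins, erythroid transcription factors, the erythropoietin receptor and a few further proteins of red cells and their precursors. The rule is a list of names with no threshold on a measured value, and the names were chosen with earlier results of these data known. A gene ID was found for 33 of them among the 29120 gene IDs of the count files, and Ahsp, the chaperone of alpha globin, is not analysed here. RNA was sequenced from whole spleens of C57BL/6 mice aged 12 weeks, labelled naive, of which 10 were wild-type and 9 were knockout for Gpr34, which encodes a lysophosphatidylserine receptor of the G protein-coupled family. A further 12 libraries, used as reference, came from dendritic cells, which present antigen to T cells. They were grown for 10 days in medium with a GM-CSF-containing supernatant from bone marrow of male wild-type or Gpr34-/- C57BL/6 mice aged 8 to 16 weeks, and on day 11 either left naive or exposed to LPS from bacterial cell walls for 8 h (3 libraries for each genotype label and treatment). The labels do not say which part of Gpr34 was deleted, or that each library came from a separate animal; every p-value therefore refers to the spread among these libraries.

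Red cells arise from precursors that multiply, fill with haemoglobin and finally lose their nucleus. Haem is built from glycine and succinyl-CoA in a chain of enzymes that starts and ends in the mitochondrion, and it is joined to globin chains in the cytosol. In the mouse the red pulp of the spleen holds red cells and their precursors, and macrophages there clear aged red cells. Reticulocytes still carry globin RNA, while mature red cells hold little RNA. In RNA from a whole spleen, fewer erythroid cells and less RNA per erythroid cell cannot be told apart.

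The stretch before the start of transcription is shown for 4 of the genes, because the members rose and fell together across spleens and Gata1, itself a member, binds GATA-type motifs near many erythroid genes. Promoter windows of 300 bases (250 before and 50 after a RefSeq start, GRCm38.p6) were used for 26 of the 33 genes, as 30 windows. Fech, of haem synthesis, is among the genes left out of the member counts. The count over all windows left no chromosome out. The motifs AGATAA and TGATAA were searched on both strands; they share the letters GATAA, so 1 position can match 1 of them alone. Either motif was found in 16 of the 30 windows (53.3%) and in 6115 of all 32851 windows (18.6%). For 24 of the 30 windows the first 20 transcribed bases stood in a GENCODE transcript of the gene. The windows of Epor and Cpox, which hold a match, were not among these 24. AGATAA was in 11.2% and TGATAA in 9.05% of all windows. The letters CCACACCC, a box that Klf1 binds, were in 3.56% of all windows and in 0 of the 30. A match is a description of the letters and not a binding site. From the 16 genes with a match, Alas2, Hba-a2, Kel and Rhd were picked as well-known members of 3 roles, and the 200 bases before the start are printed 5′ to 3′ on the strand of the gene, with matches in capitals. Alas2 at chrX:150547217-150547416 (+ strand) holds AGATAA on the opposite strand, read here as TTATCT, beginning 86 bases before the start. Hba-a2 at chr11:32296292-32296491 (+ strand) holds TGATAA 186 bases before it. Kel at chr6:41704326-41704525 (- strand) holds AGATAA 56 and TGATAA 19 bases before the start, and Rhd at chr4:134864336-134864535 (+ strand) holds AGATAA 43 bases before it.
Alas2: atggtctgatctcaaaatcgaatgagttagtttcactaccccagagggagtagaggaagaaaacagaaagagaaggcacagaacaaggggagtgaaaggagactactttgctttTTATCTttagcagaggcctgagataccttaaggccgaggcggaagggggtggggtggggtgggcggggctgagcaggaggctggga
Hba-a2: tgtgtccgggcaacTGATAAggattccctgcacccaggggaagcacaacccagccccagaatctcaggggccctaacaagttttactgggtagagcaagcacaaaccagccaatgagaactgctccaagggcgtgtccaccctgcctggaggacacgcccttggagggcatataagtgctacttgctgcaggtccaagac
Kel: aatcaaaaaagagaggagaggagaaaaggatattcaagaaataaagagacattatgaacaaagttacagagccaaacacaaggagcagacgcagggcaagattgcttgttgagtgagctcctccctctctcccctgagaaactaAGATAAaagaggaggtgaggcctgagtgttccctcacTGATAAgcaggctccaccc
Rhd: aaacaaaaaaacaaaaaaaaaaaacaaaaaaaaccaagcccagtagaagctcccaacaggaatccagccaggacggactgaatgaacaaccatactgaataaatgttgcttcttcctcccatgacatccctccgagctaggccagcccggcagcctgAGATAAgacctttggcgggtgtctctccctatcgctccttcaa

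Total counts per library were 56834377 to 133277070 in spleens and 38998746 to 74164853 in dendritic cells, and the lowest count of a member in a spleen was 70 (Icam4). Levels are in CPM, counts scaled to library size and by TMM factors, which correct for library composition. In wild-type spleens Gpr34 itself had 308 to 986 counts, and the knockout spleens, with 42 to 156, all lay below them. In dendritic cells labelled knockout it had 0, 4 and 120 counts in naive and 0, 104 and 117 in LPS-treated libraries, against 199 to 324 and 65 to 125 in wild-type ones. Since 3 of those 6 libraries hold over 100 counts, they are called labelled knockout throughout. Knockout spleen 4 stands apart, with haemoglobin alpha genes at 15.6% of its counts.

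The haemoglobin alpha genes were the most abundant members by far, and their share of all counts ran from 2.26 to 15.6% over the 19 spleens (median 5.27%). The other 31 members together took 0.0920 to 0.81% (median 0.30%). Hba-a2 (ENSMUSG00000069917, chr11:32296489-32297298, + strand; GRCm38, here and below from the GENCODE M21 annotation by Ensembl ID) ran from 17086 to 55201 CPM in wild-type spleens (median 36458) and 24027 to 159585 CPM in knockout spleens (median 42677). Hba-a1 (ENSMUSG00000069919, chr11:32283511-32284465, + strand) ran from 4026 to 14129.7 CPM in wild-type spleens (median 9504) and 6557 to 37280.5 CPM in knockout spleens (median 11001). The genotypes overlapped for both genes, and knockout spleen 4 was the highest library. These neighbouring genes are near-identical copies, so how their reads were split between them is uncertain. The ratio of Hba-a2 to Hba-a1 was 3.41 to 4.66 over the 19 spleens.

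Among the enzymes of haem synthesis, Alas2, which makes the first precursor in erythroid cells, was the most abundant. Alas2 (ENSMUSG00000025270, chrX:150547375-150570638, + strand) spanned 209.7 to 1199 CPM in wild-type spleens (median 493) and 182 to 1338 CPM in knockout spleens (median 535). Knockout spleen 4 and wild-type spleen 4 were the 2 highest libraries, and the lowest were knockout spleen 9 and wild-type spleen 2. Alad, the second enzyme, spanned 64.2 to 249.6 CPM in wild-type spleens (median 115) and 89.2 to 433 CPM in knockout spleens (median 175). Urod, which trims the side chains of uroporphyrinogen, spanned 81.7 to 289 CPM in wild-type spleens (median 136) and 71.4 to 483 CPM in knockout spleens (median 168). Fech, which places the iron atom, had 42.7, 77.9 and 170.0 CPM (lowest, median, highest) in wild-type and 23.8, 91.8 and 286 CPM in knockout spleens. The ranges of the genotypes overlapped for these 4 genes. Uros, Cpox and Ppox, the steps between, were also detected in all 19 spleens, with medians of 87.5, 21.6 and 103 CPM. The highest spleen exceeded the lowest 12.0-fold for Fech and 4.33-fold for Ppox, the smallest span of the 33 genes. Alas2 overlaps Apex2, Uros Bccip, Cpox Gpr15 and Ppox B4galt3 in the annotation, and how strand was used in counting is not known from the labels, so some reads may belong to those neighbours.

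Iron reaches the precursors through Tfrc, the transferrin receptor, and enters their mitochondria through Slc25a37, mitoferrin. Tfrc (ENSMUSG00000022797, chr16:32608920-32632794, + strand) spanned 46.9 to 183 CPM in wild-type spleens (median 106) and 31.8 to 495 CPM in knockout spleens (median 109.7). Knockout spleens 4 and 6 lay above all other spleens for this gene, and the remaining values overlapped. Slc25a37 (ENSMUSG00000034248, chr14:69241848-69285112, - strand) spanned 34.2 to 125 CPM in wild-type spleens (median 65.2) and 24.5 to 209 CPM in knockout spleens (median 76.8), with overlapping genotypes. Both genes are also expressed outside the erythroid line, and both had counts in every dendritic cell library.

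Most membrane skeleton genes had wide spans. Epb42, which anchors the skeleton to the anion exchanger, spanned 9.39 to 91.4 CPM in wild-type spleens (median 33.0) and 3.10 to 169 CPM in knockout spleens (median 38.3), a 54.7-fold span and the widest of the 33. Slc4a1 (ENSMUSG00000006574, chr11:102348824-102366203, - strand), the anion exchanger itself, spanned 52.9 to 438 CPM in wild-type spleens (median 156) and 19.3 to 849 CPM in knockout spleens (median 203), or 43.9-fold. Knockout spleens held both the lowest and the highest value of each gene. Ank1 (ENSMUSG00000031543, chr8:22974844-23150497, + strand), the ankyrin that ties spectrin to the membrane, spanned 70.6 to 575 CPM in wild-type spleens (median 268) and 37.1 to 1234 CPM in knockout spleens (median 278). Sptb, beta-spectrin, spanned 35.8 to 303 CPM in wild-type spleens (median 120.2) and 19.9 to 593 CPM in knockout spleens (median 157). Add2, beta-adducin, and Tmod1, which caps actin filaments, were the members with the lowest level per length, at medians of 1.53 and 2.25 CPM per kb of exon. Ank1, Sptb and Tmod1 overlap other annotated genes.

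Blood group and surface genes were again highest in knockout spleen 4. Ermap (ENSMUSG00000028644, chr4:119175457-119190011, - strand), the Scianna blood group protein, spanned 24.5 to 188 CPM in wild-type spleens (median 84.0) and 18.5 to 371 CPM in knockout spleens (median 95.5). Rhd (ENSMUSG00000028825, chr4:134864536-134896172, + strand), the Rh protein, spanned 21.0 to 155 CPM in wild-type spleens (median 56.0) and 10.4 to 256 CPM in knockout spleens (median 77.0). Kel (ENSMUSG00000029866, chr6:41686330-41704339, - strand), the Kell blood group protease, spanned 14.1 to 103 CPM in wild-type spleens (median 37.5) and 5.86 to 193 CPM in knockout spleens (median 43.4). The genotypes overlapped for all 3. Rhag, the partner of the Rh protein, had a 38.5-fold span around a median of 17.1 CPM. Icam4, an adhesion protein that carries the LW blood group, had the lowest CPM of all members, with a median of 3.09 and a lowest count of 70 reads.

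Nfe2, a subunit of an erythroid and megakaryocyte transcription factor, was the most abundant of the transcription and nuclear genes. Nfe2 (ENSMUSG00000058794, chr15:103248212-103258403, - strand) spanned 58.2 to 247 CPM in wild-type spleens (median 96.2) and 42.1 to 446 CPM in knockout spleens (median 127). Gata1 (ENSMUSG00000031162, chrX:7959260-7978071, - strand), required for erythroid maturation, spanned 9.32 to 45.3 CPM in wild-type spleens (median 20.2) and 9.66 to 92.1 CPM in knockout spleens (median 27.1). Klf1 (ENSMUSG00000054191, chr8:84901928-84905291, + strand), an activator of globin and skeleton genes, spanned 4.34 to 24.0 CPM in wild-type spleens (median 9.44) and 3.04 to 52.0 CPM in knockout spleens (median 13.1). In each case the genotypes overlapped. Tal1, a factor needed for blood formation, had a median of 20.8 CPM over the 19 spleens and a 16.6-fold span. Hemgn, a nuclear protein of blood-forming cells, spanned 41.8-fold, from 4.97 CPM in knockout spleen 3 to 208 in knockout spleen 4. Epor (ENSMUSG00000006235, chr9:21958897-21963506, - strand), the receptor for erythropoietin, spanned 6.6 to 27.7 CPM in wild-type spleens (median 13.2) and 6.00 to 61.7 CPM in knockout spleens (median 15.7).

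Of the red cell enzymes, Car2 and Car1 are carbonic anhydrases and Bpgm makes the bisphosphoglycerate that lowers the oxygen affinity of haemoglobin. Car2 (ENSMUSG00000027562, chr3:14886273-14900770, + strand) spanned 50.5 to 409 CPM in wild-type spleens (median 162) and 35.3 to 611 CPM in knockout spleens (median 194). Car1 spanned 23.9 to 105 CPM in wild-type spleens (median 74.7) and 29.2 to 252 CPM in knockout spleens (median 79.4), and Bpgm 65.3 to 256 CPM in wild-type spleens (median 133) and 53.6 to 359.9 CPM in knockout spleens (median 134). Tspo2 (ENSMUSG00000023995, chr17:48447907-48451522, - strand), an erythroid relative of the translocator protein, spanned 16.6 to 95.7 CPM in wild-type spleens (median 35.4) and 12.3 to 181 CPM in knockout spleens (median 50.3). Trim10, a RING finger protein of erythroid cells, had a 31.9-fold span around a median of 22.5 CPM. The genotypes overlapped for these 5 genes too.

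Per kb of exon, Hba-a2 led with a median of 60369 CPM per kb, then Hba-a1 with 13220.0 and Alas2 with 206. Next came Car2 (71.2 CPM per kb), Alad (63.3), Car1 (61.1), Urod (54.4), Rhd (38.2), Bpgm (37.3) and Nfe2 (35.3). From Car2 downwards, neighbours in this order overlapped in their ranges over the spleens: Car2 covered 14.6 to 252 CPM per kb and Alad 34.3 to 231. The ranges of Hba-a1 (4959 to 45912 CPM per kb) and Alas2 (75.6 to 557) were far apart.

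**Figure D1:**
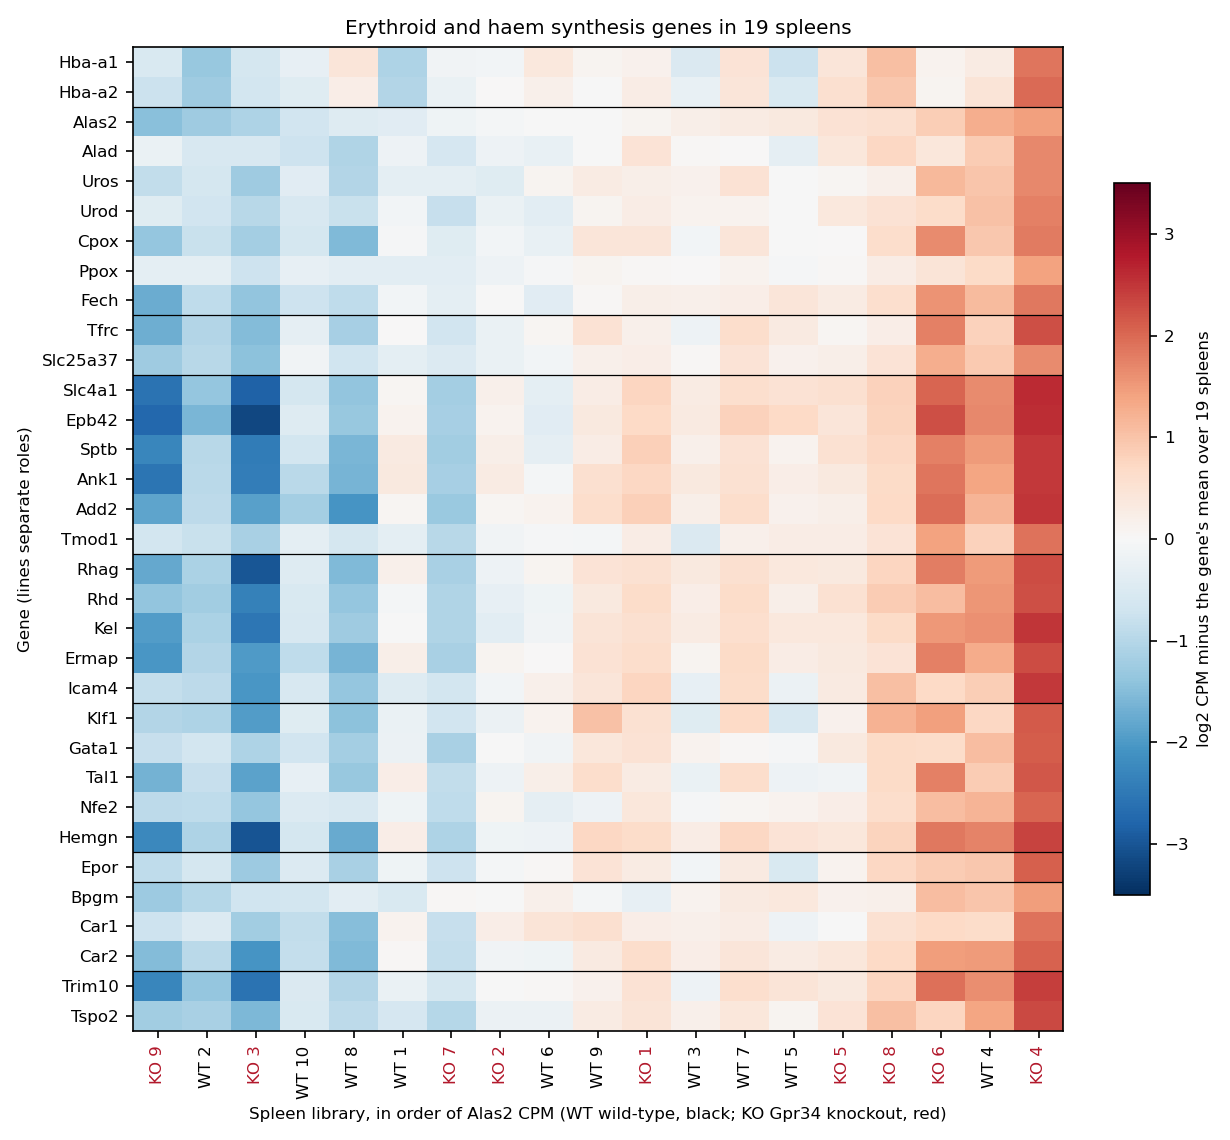
Colour gives each gene's log2 CPM minus its mean over the 19 spleens; columns are spleens in order of their Alas2 CPM (wild-type names in black, knockout in red) and rows are the 33 genes, with lines between roles. Columns change as a block: knockout spleen 4 is the highest for all 33 genes and knockout spleen 3 the lowest for 20.

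The same few spleens were high or low for nearly every member. Knockout spleen 4 was the highest of the 19 for all 33 genes. The second place went to knockout spleen 6 for 19 genes, wild-type spleen 4 for 11 and knockout spleen 8 for 3. Knockout spleen 3 was the lowest for 20 genes, knockout spleen 9 for 6, wild-type spleen 8 for 5 and wild-type spleen 2 for 2. Both ends were thus held mostly by knockout spleens 4, 3 and 9. The members move together, so these places are not independent of each other. The haemoglobin alpha genes could part from the rest: in knockout spleen 6 they took 5.27% of counts, the median of the 19 spleens, while the other members took 0.629%. In wild-type spleen 8 the haemoglobin alpha genes took 6.07% and the other members 0.134%.

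Markers of other cells also differed in these spleens. The 15 megakaryocyte and platelet markers summed to 1028 CPM in knockout spleen 4, the highest of 19, 437 in wild-type spleen 4, the second, and 232 in knockout spleen 6, the lowest (median of 19 spleens 328). The 15 neutrophil granule markers summed to 1758, 1705 and 537 CPM in those spleens (median 719). The 12 red pulp macrophage markers were at 2122 CPM in knockout spleen 6 and 1697 in knockout spleen 4, the 2 highest of 19 (median 1384). The 10 B cell markers were lowest in knockout spleen 4, at 2704 CPM (median 3793), and the 10 T cell markers lowest in knockout spleens 6 and 4, at 667 and 765 CPM (median 1053). The 10 exocrine pancreas markers, a sign of neighbouring tissue, summed to 3599, 6945 and 2491 CPM in knockout 4, knockout 6 and wild-type 4 (median 513). No marker of these 6 lists, nor of those of mast cells and basophils, dendritic cells, and stroma and endothelium, was at 0 in all spleens of a genotype. Their part in the results was not tested.

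**Figure D2:**
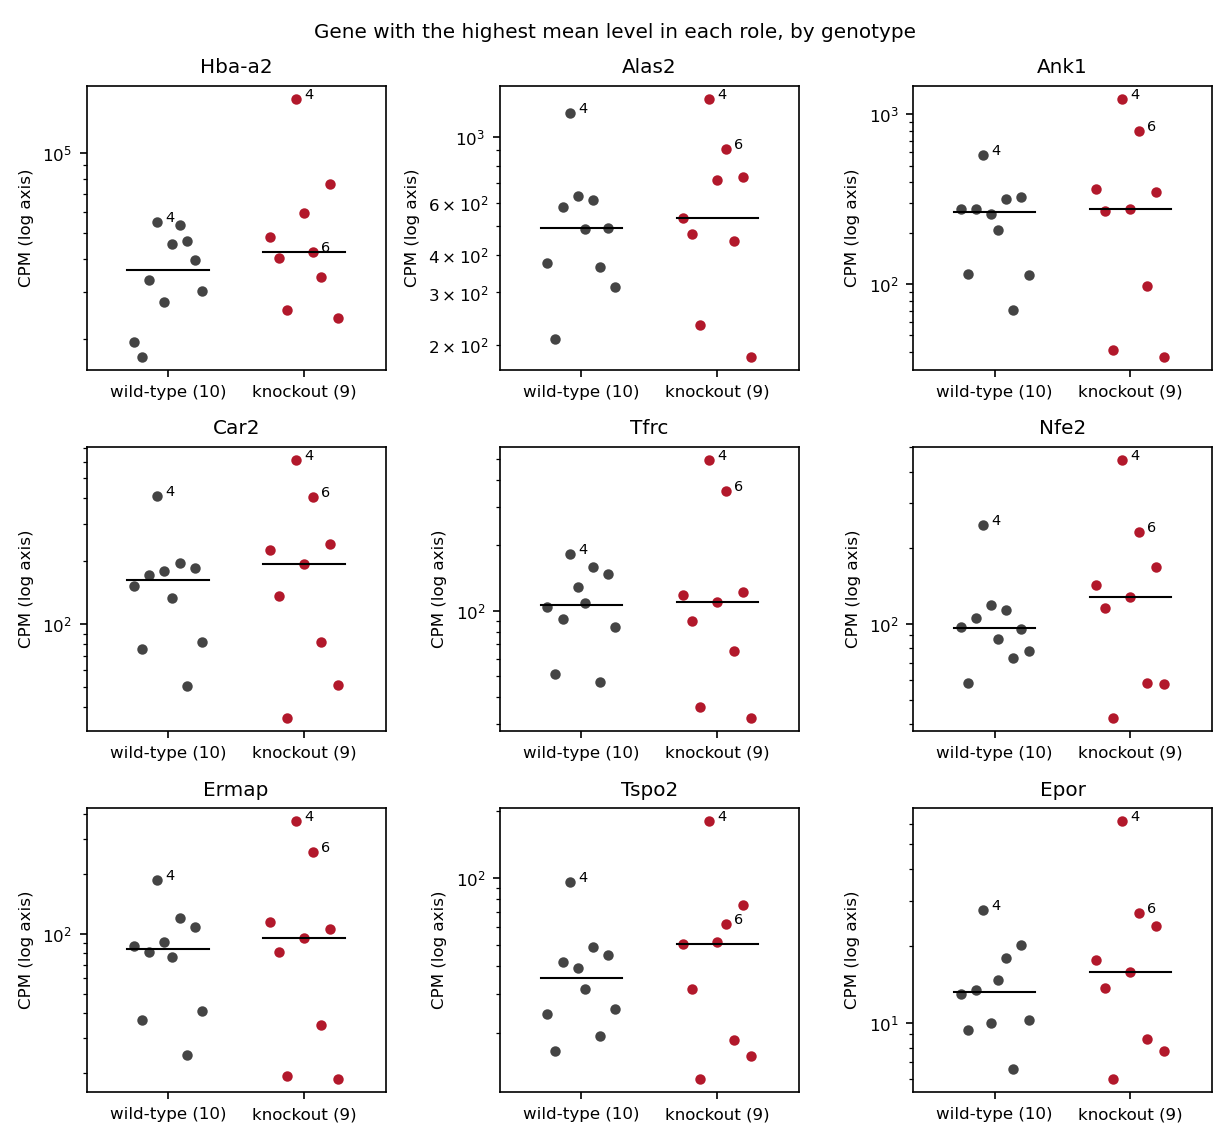
Points are the CPM (log axis) of the most abundant gene of each role in the 10 wild-type (black) and 9 knockout spleens (red), with a line at the median; the numbers mark wild-type spleen 4 and knockout spleens 4 and 6. Genotypes overlap in each panel, and knockout spleen 4 is the top point.

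The members varied together across spleens far more than they varied apart. Of the 528 pairs of members, 455 (86.2%) had a Pearson's r of log2 CPM (prior count 2) over 0.8, with a median of 0.92. The closest pairs were Slc4a1 with Epb42 (0.997), Rhag with Hemgn (0.994) and Ank1 with Ermap (0.993), and the loosest was Hba-a1 with Hemgn (0.53). The first principal component held 92.7% of the variance of the 33 genes. The second held 2.85% and set the haemoglobin alpha genes (weights 0.54 and 0.48), Icam4 (0.23) and Alad (0.21) against Epb42 (-0.20), Hemgn (-0.19) and Ank1 (-0.18). The SD of log2 CPM had a median of 0.98 over members and 0.36 over the 20371 genes tested in spleen, and all 33 members lay above the latter. These values are a description of 19 libraries that share depth scaling and composition.

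Alas2 was the reference for a test across all genes, since it is the erythroid form of the enzyme that opens haem synthesis. The other 32 members all correlated positively with it at an adjusted p under 0.05 (permutation test with 100000 resamples, two-sided, Benjamini-Hochberg over 20370 genes). Of all 20370 genes, 689 did so, or 3.38%. The members were chosen with earlier results of these data known, so this contrast is a description and no independent test. Bpgm had the highest r, 0.96 (Spearman's rho 0.94, permutation p = 1e-05, the smallest that the resamples can give, adjusted p = 0.00110). Fech (0.95), Trim10 (0.95) and Slc25a37 (0.94) came next. The lowest were Hba-a2 (0.79), Car1 (0.78) and Hba-a1 (0.70, permutation p = 0.000780, adjusted p = 0.0261), and Hba-a1 missed the threshold by Spearman's rho (0.64, permutation p = 0.00375, adjusted p = 0.0990). An r over 0.8 was reached by 28 of the 32 members and by 1.31% of all genes.

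The spleens at the ends of the range did not carry the relation alone. Without knockout spleens 9 and 4, which lie farthest from the median of Alas2, r ran from 0.60 to 0.94 and 29 of 32 members passed. Within the 10 wild-type spleens r ran from 0.51 to 0.98 (median 0.84), and within the 9 knockout spleens from 0.81 to 0.98 (median 0.93). With so few spleens 1 member passed in wild-type alone and 12 in knockout alone. Klf1 (0.63 in wild-type, 0.92 in knockout), Car1 (0.62 and 0.88) and Hba-a1 (0.51 and 0.85) had the widest gaps, and the difference between genotypes was not tested. The r of Alas2 with the log2 total counts was -0.0022 (rho -0.018, permutation p = 0.993, adjusted p = 0.993). Its r with the TMM factor was -0.44 (rho -0.38, permutation p = 0.0578, adjusted p = 0.116 over these 2 relations).

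Members differed in how steeply they moved with Alas2. The slope of log2 CPM on that of Alas2 was steepest for Epb42 (1.79), Slc4a1 (1.70), Hemgn (1.6) and Trim10 (1.55). It was shallowest for Ppox (0.52), Alad (0.66), Hba-a1 (0.67) and Hba-a2 (0.75). A slope over 1 was found for 5 of the 6 membrane skeleton genes, Tmod1 being the exception, and for 2 of the 6 other haem enzymes, Fech and Cpox. In the same libraries the ratio of Slc4a1 to Alas2 counts ran from 0.0825 in knockout spleen 3 to 0.635 in knockout spleen 4.

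**Figure D3:**
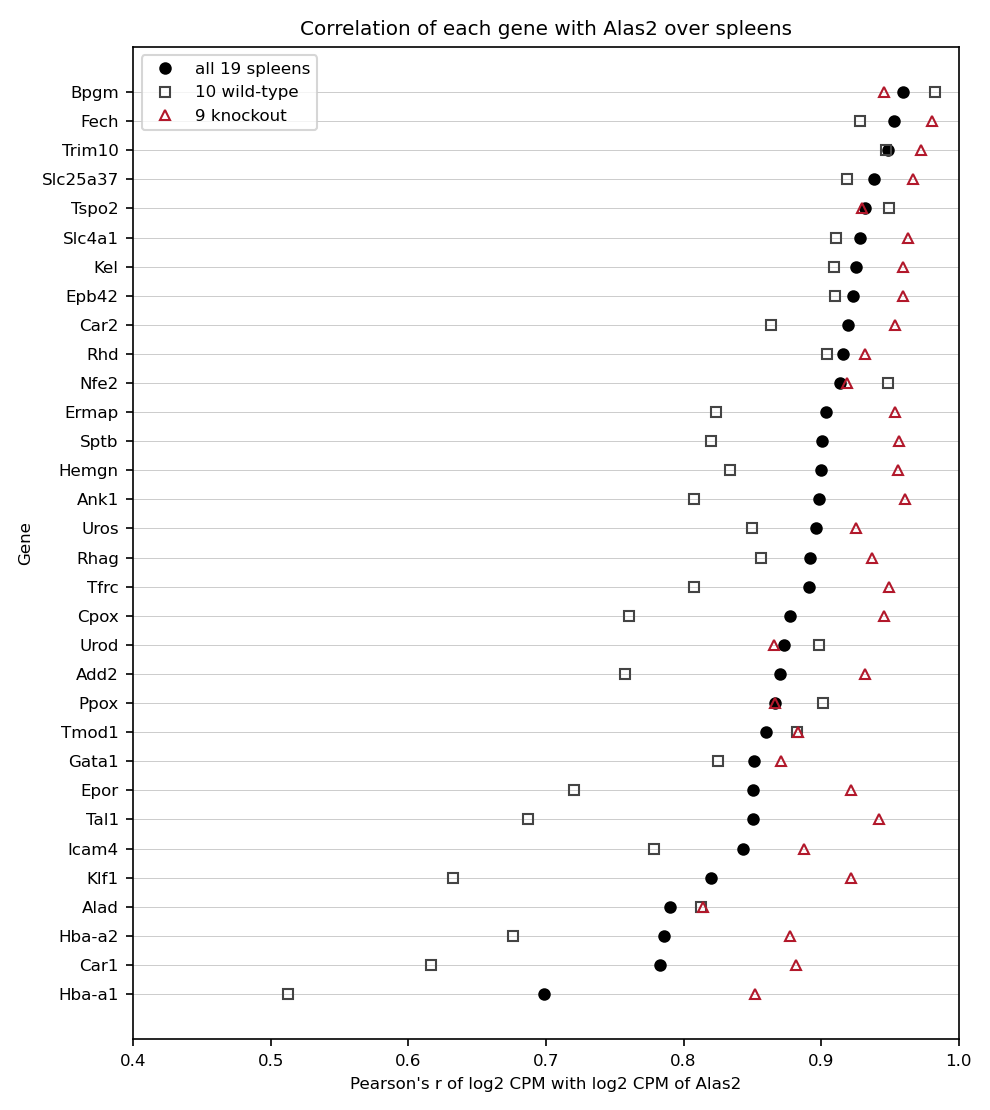
The horizontal axis is Pearson's r of a gene's log2 CPM with that of Alas2, over all 19 spleens (filled circles), the 10 wild-type (squares) and the 9 knockout spleens (triangles), for the other 32 genes in rows. All points lie between 0.51 and 0.98, and the haemoglobin alpha genes and Car1 are at the bottom.

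Some of the further erythroid genes, listed by function and outside the 34, passed the same test against Alas2, which 3.38% of all genes passed. These lists too were chosen with earlier results of these data known. Of 35 further genes of the red cell membrane and cytosol, 29 passed, among them Mkrn1 (0.93), Ube2o (0.93) and Tspan33 (0.93). Of 29 genes of haem and iron handling, 12 passed (median r of the list 0.54), among them Fam210b (0.90), Abcb10 (0.90), Hebp1 (0.85) and Slc25a38 (0.83), of which Abcb10 is a mitochondrial transporter and Slc25a38 a carrier of glycine. Of 25 erythroid regulators, 7 passed (median r 0.46), led by Sox6 (0.88), Bcl2l1 (0.84), Gfi1b (0.81) and Lmo2 (0.80). Sox6 and Gfi1b are transcription factors of red cell precursors, and Bcl2l1 protects them from cell death. Of 24 cell division genes, 14 passed, led by Ccna2 (0.81), Ube2c (0.80), Ccnb2 (0.79) and Birc5 (0.77). Among the 102 markers of other cell types 1 passed, Adgre1 of the red pulp macrophage list (0.69, 1 of 12 genes), and 0 passed in the other 8 lists. Median r was 0.20 for the megakaryocyte and platelet list, 0.11 for exocrine pancreas, -0.27 for B cells and -0.42 for T cells.

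The 10 genes outside the list whose pattern was most like that of Alas2 over the 19 spleens (Pearson's r, mean of at least 1 CPM) included several that no erythroid list held. Rsad2 (0.97), Cdr2 (0.96), Fam220a (0.95), ENSMUSG00000048910 (0.95) and St3gal5 (0.95) came first. Ube2l6 (0.94), Gm15115 (0.94) and Dhrs11 (0.94) followed, with haemoglobin beta-cluster genes in the remaining places. Rsad2, viperin, is known as an interferon-induced protein, and Ube2l6 as a conjugating enzyme of the ubiquitin-like protein ISG15. Across the spleens Rsad2 ran over an 8.39-fold and Ube2l6 over a 6.29-fold span. Their r within wild-type spleens was 0.99 and 0.99, and within knockout spleens 0.97 and 0.94.

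No member passed the test between Gpr34 knockout and wild-type spleens. By edgeR's quasi-likelihood test, 0 of 33 members were called higher or lower at an adjusted p under 0.05, against 0.0982% of the 20371 genes higher (20) and 0.0785% lower (16). At an unadjusted p under 0.05 the counts were 0 members and 3541 genes, and DESeq2 and limma voom also called 0 members. The calls over all genes changed with single spleens, from 4 higher and 4 lower without knockout spleen 8 to 524 and 527 without knockout spleen 6, with 0 members throughout. DESeq2 called 442 and 431 genes and limma voom 383 and 407. By edgeR all 33 log2 fold changes were above 0, with a median of 0.51 against 0.013 over all genes. The members move together (first principal component 92.7% of their variance), so these signs are not independent of each other. With limma voom and sample weights the median was 0.15, with 27 of 33 above 0. The largest by edgeR were those of Icam4, 0.72 (SE 0.43, adjusted p = 0.402), Add2, 0.70, and Slc4a1, 0.69. The smallest was that of Ppox, 0.21. By role the median ran from 0.34 for the red cell enzymes to 0.64 for the membrane skeleton genes. For the haemoglobin gene Hba-a2 the log2 fold change was 0.62 (SE 0.32, adjusted p = 0.319), the smallest p of the 33, and for Alas2 it was 0.23 (SE 0.33, adjusted p = 0.746). Ank1 had 0.60 (SE 0.55, adjusted p = 0.585), Tfrc 0.52 (SE 0.44, adjusted p = 0.563), Nfe2 0.52 (SE 0.37, adjusted p = 0.475) and Epor 0.50 (SE 0.37, adjusted p = 0.494).

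The shift was smaller without knockout spleen 4. Without that library the median log2 fold change of the members was 0.091 and 26 of 33 were above 0. Without knockout spleen 6 the median was 0.33, and without wild-type spleen 4 it was 0.69. Without the 3 spleens with the highest summed level of the members other than haemoglobin (knockout 4 and 6, wild-type 4) it was 0.024, with 18 above 0. Without knockout spleens 4, 6 and 9 it was -0.086, with 10 above 0. No member was called in any of these settings. With the Alas2 level as a covariate the median over the other 32 members was 0.031, with 17 above 0. Alas2 is itself a member with which the other 32 correlated (median r 0.89). That setting therefore takes out much of what the members share and is no separate check.

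Among the further genes of the pathway, 1 of 29 haem and iron genes was called higher in knockout spleens, against 0.0982% of all genes. For the red cell membrane and cytosol genes it was 0 of 35, for the regulators 0 of 25 and for the cell division genes 0 of 24. The gene called was Snx3, a sorting nexin that returns the transferrin receptor to the cell surface. Snx3 was at 96.7 ± 12.1 CPM (SD, n = 9) in knockout and 74.6 ± 6.96 (n = 10) in wild-type spleens. Its log2 fold change was 0.37 (SE 0.074, adjusted p = 0.0414) by edgeR. Over all genes the number called higher ran from 2 to 524 in the alternative settings. The result of Snx3 in those settings is not reported here. On plain library sizes, without TMM factors, the calls over all genes were 7 higher and 183 lower, the median of all genes shifted to -0.10 and that of the members to 0.34, with 33 still above 0. The exocrine pancreas markers summed to 13.1 to 2491 CPM in wild-type spleens (median 129) and 15.6 to 8011 in knockout spleens (median 1041), with 0 of 10 called. Their part in these differences was not tested.

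**Figure D4:**
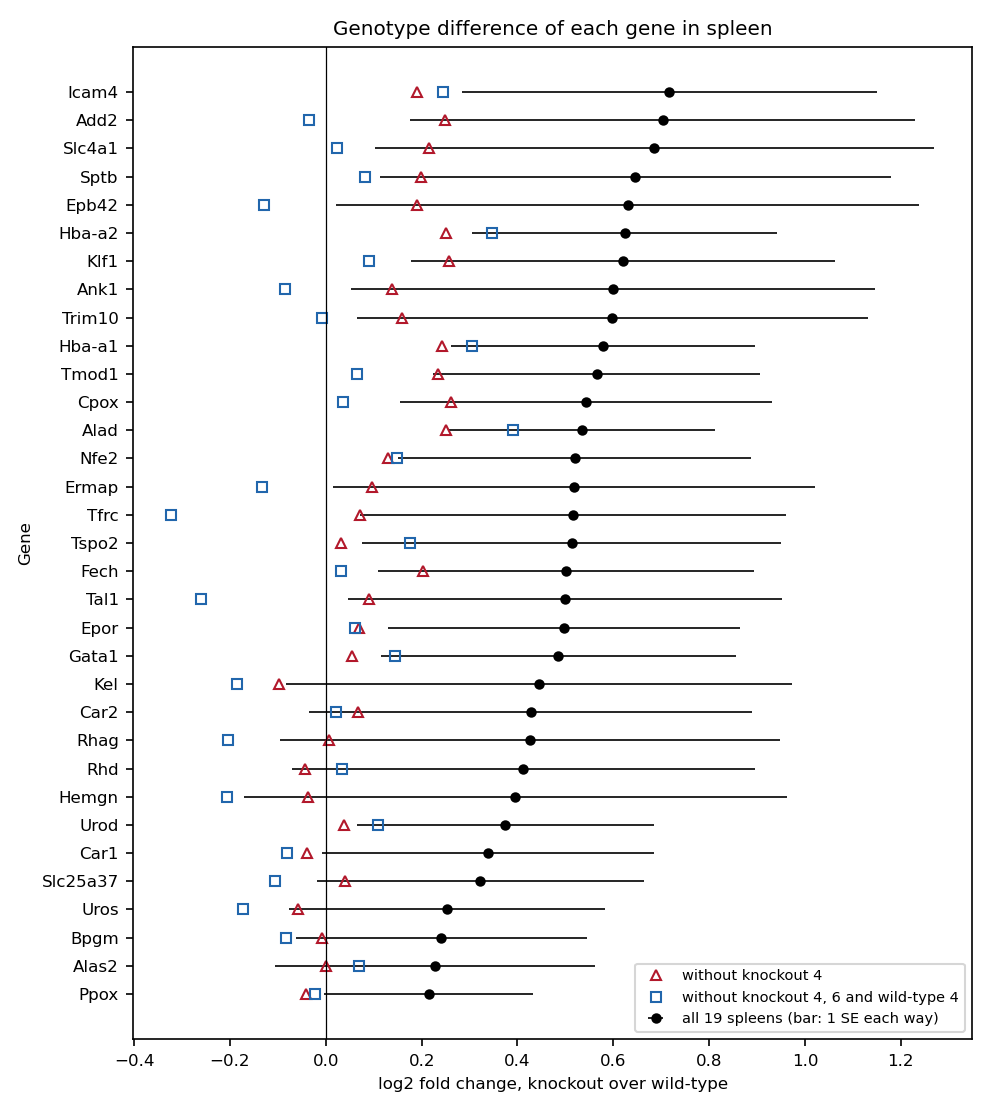
Each row gives the log2 fold change of a gene in knockout over wild-type spleens: filled circles with bars of 1 SE each way for all 19 spleens, triangles without knockout spleen 4, and squares without knockout spleens 4 and 6 and wild-type spleen 4. The circles lie between 0.21 and 0.72, while the median of the triangles is 0.091 and that of the squares 0.024.

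In dendritic cells the members ranged from no counts to over 100 CPM. Hba-a1, Hba-a2, Epb42, Kel and Tspo2 had 0 counts in all 12 libraries, which allows at most 0.0908 CPM (3 counts in the library where they weigh most, counting error only). A further 9 members, among them Slc4a1, Rhag, Klf1 and Hemgn, had so few reads that they were not tested, with a highest count of 52. The 16 members with a median of at least 1 CPM included Car2 (108 CPM), Tal1 (38.6, against a spleen median of 20.8), Ppox (29.8), Urod (23.9), Uros (23.5) and Tfrc (19.6). Alas2 had 0 to 117 counts, and Ank1 a median of 7.09 CPM. Spleen and dendritic cells were not tested against each other, since 2 genes often used as constant references differed in opposite directions. Actb ran from 4314 to 7411 CPM in spleens and from 8682 to 22632 CPM in dendritic cells. For Gapdh the spleens spanned 49.8 to 159.6 CPM and the dendritic cells 2.26 to 8.82. Whether the low Gapdh values reflect its expression or how reads were counted was not tested. The cultures carried dendritic cell markers, led by Cd74 and H2-Ab1, with 10 markers summing to 10139.5 to 11753 CPM in naive wild-type cells. Of these 10, 2 had a mean under 1 CPM, and Cd209a had no counts in LPS-treated wild-type cells. In wild-type spleens the same 10 markers summed to 8581 to 13722 CPM, so their sum is not particular to the cultures. The 12 red pulp macrophage markers summed to 1082 to 1183 CPM in naive wild-type cells, led by Axl and Adgre1.

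After LPS a few iron and haem genes of dendritic cells were called, in both directions. In wild-type cells 19 members could be tested, and edgeR called 2 higher and 5 lower, against 18.1% and 15.8% of the 16965 genes. In cells labelled knockout it called 1 higher and 3 lower, against 15.3% and 13.4%. Read against those shares, the counts show nothing particular to the members. Of the 9 haem synthesis and iron import genes tested, 5 passed in wild-type and 3 in labelled knockout cells. The median log2 fold change of the 19 members was 0.0072 in wild-type (all genes -0.029) and -0.13 in labelled knockout cells (all genes -0.025). On plain library sizes the median of all genes moved to -0.44 and -0.35, and the calls to 1599 higher and 6128 lower genes in wild-type and 1441 and 4986 in labelled knockout cells, from 3064 and 2679, and 2601 and 2274. The members called then were 2 higher and 7 lower in wild-type and 1 higher and 6 lower in labelled knockout cells. Leaving out naive wild-type replicate 1 or 4 left 3 members lower, and leaving out naive labelled knockout replicate 3 or 4 gave 3 or 2 members higher.

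Of the iron importers, Tfrc fell and Slc25a37 rose. Tfrc was at 36.3, 30.8 and 33.8 CPM in the 3 naive wild-type libraries and 10.7, 11.4 and 10.4 after LPS. In cells labelled knockout it was at 38.7, 22.6 and 42.4 CPM when naive and at 16.6, 5.23 and 9.09 after LPS. The groups did not overlap within either genotype label, and the log2 fold changes were -1.63 (SE 0.35, adjusted p = 0.00447) and -1.75 (SE 0.35, adjusted p = 0.00379). How many of all genes separate in this way is not reported here, so separation, here and below, is not read as particular to the members. Slc25a37 was at 9.31, 7.74 and 12.1 CPM in naive and 21.2, 21.0 and 21.5 in LPS-treated wild-type cells. In labelled knockout cells it was at 8.42, 8.66 and 10.4 CPM when naive and at 28.2, 14.2 and 22.6 after LPS. Each LPS library lay above each naive one of its label, with log2 fold changes of 1.13 (SE 0.23, adjusted p = 0.00346) and 1.24 (SE 0.23, adjusted p = 0.00260). The gene for the surface receptor and that for the mitochondrial carrier thus moved in opposite directions in both labels.

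Of the haem enzymes, Urod, Fech and Alad fell in wild-type cells, and of these Urod in labelled knockout cells too. Urod was at 38.4, 32.7 and 33.4 CPM in naive and 18.4, 23.8 and 18.8 in LPS-treated wild-type cells (log2 fold change -0.78, SE 0.19, adjusted p = 0.00796). In labelled knockout cells it was at 28.5, 24.0 and 37.6 CPM when naive and at 21.4, 22.4 and 16.1 after LPS, with -0.59 (SE 0.19, adjusted p = 0.0354). That call was lost when only the libraries compared were fitted, without naive replicate 2 or 4 or LPS replicate 2 or 4 (adjusted p up to 0.138 over its alternatives), and without the 3 labelled knockout libraries with over 100 Gpr34 counts (-0.66, adjusted p = 0.0813). Fech was at 31.9, 22.7 and 28.1 CPM in naive and 21.8, 21.7 and 15.5 in LPS-treated wild-type cells (log2 fold change -0.49, SE 0.16, adjusted p = 0.0328). Alad was at 8.68, 9.88 and 9.0 CPM in naive and 1.57, 4.43 and 5.17 in LPS-treated wild-type cells (log2 fold change -1.30, SE 0.42, adjusted p = 0.0349). The groups of wild-type libraries did not overlap for Urod, Fech and Alad. Fitting only the libraries compared ended the call of Fech. Leaving out single libraries ended the calls of Fech (naive 1, naive 4 or LPS 3) and Alad (any of naive 1, 2 and 4 and LPS 1 and 2), with adjusted p up to 0.106 and 0.0808. In labelled knockout cells, Fech ran at 26.0, 23.7 and 24.97 CPM in naive and 21.2, 20.1 and 18.8 after LPS, and Alad at 8.88, 6.25 and 5.49 CPM in naive and 9.07, 3.49 and 5.75 after LPS. Neither passed there, and the groups of Alad overlapped.

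Nfe2 fell most among the members in wild-type cells. It was at 65.0, 51.6 and 47.2 CPM in naive and 7.18, 6.58 and 11.9 in LPS-treated wild-type cells (log2 fold change -2.68, SE 0.65, adjusted p = 0.00846). In cells labelled knockout it was at 40.7, 11.5 and 55.8 CPM when naive and at 4.37, 1.5 and 9.80 after LPS, and the log2 fold change was -2.78 (SE 0.66, adjusted p = 0.00880). No LPS library reached a naive one of its label. The labelled knockout call was lost when only the libraries compared were fitted (adjusted p = 0.0503). Car1 rose from 0.743, 0.409 and 0.351 CPM to 9.63, 7.28 and 6.05 in wild-type cells (log2 fold change 3.93, SE 0.87, adjusted p = 0.00518). In labelled knockout cells it was at 1.32, 0.923 and 0 CPM in naive and 3.17, 3.49 and 4.26 in LPS-treated cells, and did not pass. All 12 counts of Car1 in dendritic cells are multiples of 25, from 0 to 350, so its values come in steps of 25 reads; with the counts divided by 25 the wild-type call remained (3.78, adjusted p = 0.00612). Car2, its abundant relative, did not pass in either label, with 109, 123 and 122 CPM in naive and 114, 108 and 112 in LPS-treated wild-type cells.

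Of the other genes of iron and haem handling, 6 of 29 were called higher and 9 lower after LPS in wild-type dendritic cells (7 and 7 in labelled knockout cells), and the rest did not pass. Over all genes the shares were 18.1% and 15.8% (15.3% and 13.4%), against which each of these list counts is to be read. Slc11a2, an iron transporter, rose by 1.98 on the log2 scale, Hmox1, which breaks haem down, by 1.95, and Fth1, the ferritin heavy chain, by 1.18. Hebp1, a haem-binding protein, fell by 3.54. Of the red cell membrane and cytosol genes 6 of 26 were higher and 5 lower (4 and 5 in labelled knockout), with Nt5c3, a nucleotidase, at 3.04 and Cd47, a surface protein that signals to macrophages, at 0.99. Of the regulators 7 of 24 were higher and 7 lower (7 and 7), with E2f2 at -3.96 and Lmo2 at -0.96. Of 24 cell division genes 1 was higher (Tyms, 1.42) and 20 were lower (1 and 20), with Cdc20 at -3.23 and Aurkb at -2.96.

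No member was called between genotype labels in dendritic cells. Labelled knockout against wild-type, edgeR called 0 of 19 members and 0% of the 16965 genes in naive cells, and 0 members and 0% after LPS. The interaction of label and LPS, the test of whether the LPS response differed between labels, also called 0 members and 0% of genes. At an unadjusted p under 0.05 these comparisons had 0 members and 1139, 1914 and 678 genes. DESeq2 called 46 genes higher and 30 lower in naive cells, 221 and 151 after LPS, and 10 and 11 for the interaction. Limma voom called 0 and 1, 0 and 0, and 0 and 0.

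**Figure D5:**
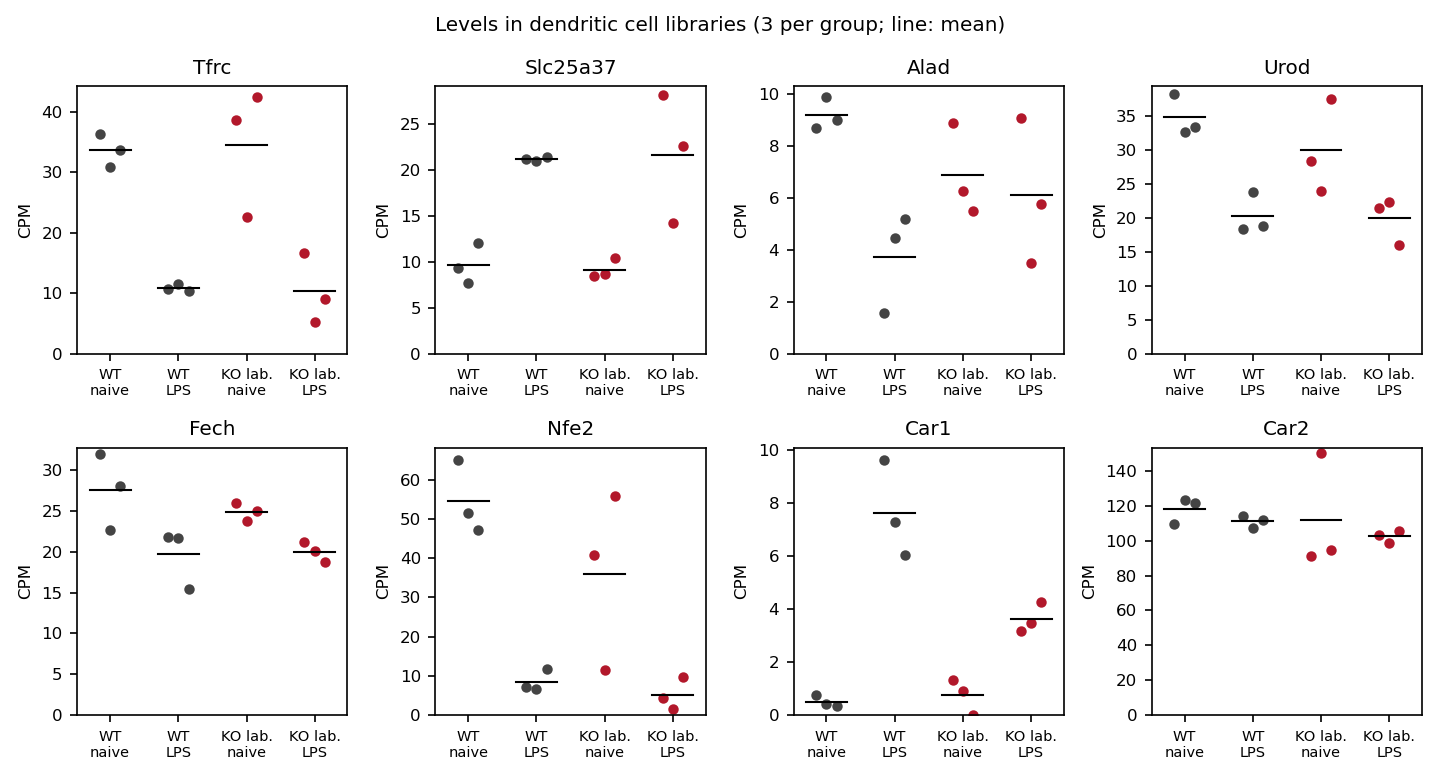
Points are the CPM of 8 members in the 3 libraries of each dendritic cell group (wild-type in black, labelled knockout in red; naive and LPS-treated side by side), with a line at the mean and axes from 0. Tfrc and Nfe2 drop and Slc25a37 rises after LPS in both labels, while the naive and LPS groups of Car2 overlap.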

How the data were processed

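The labels name total RNA from whole spleens and cultured dendritic cells, sequenced on Illumina instruments. The submitters' processing notes name TopHat 1.3.3, Bowtie 0.0.9v, SAMtools, bedtools, DESeq and the mm9 build, without roles. How strand and multi-mapping reads were treated, and which annotation release was used, is not given in the sources used here. The authors deposited whole-number read counts per Ensembl gene ID for each sample, and a gene without a line was taken as 0. Small counts were even more often than odd (57.8 to 62.1% of counts up to 200), so counts are not all independent molecules and intervals cover counting error only.

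Samples were grouped by the labels. Spleens (20371 genes, 17 residual degrees of freedom) and dendritic cells (16965 genes, 8) were fitted separately with edgeR 4.0.16 in R 4.3.3: filterByExpr, TMM factors, robust quasi-likelihood tests, and Benjamini-Hochberg adjustment over all genes tested at 0.05. All 33 members were tested in spleens and 19 in dendritic cells. Correlations were computed on log2 CPM (prior count 2), with permutation tests with 100000 resamples (Python 3.11.15, numpy 2.4.6, scipy 1.17.1, pandas 2.3.3; figures with matplotlib 3.10.9). Alternatives used DESeq2 1.42.0, limma 3.58.1 voom with sample weights, other scaling, filters and sample sets. The scripts were tested on simulated data. In the spleen comparison (20371 genes) 81% of genes changed 2-fold and 98% of those changed 4-fold were found. In the wild-type LPS comparison (16965 genes) the shares were 50% and 82%. The spleen shares are not those of the members, which vary more. Their SD of log2 CPM had a median of 0.98, and that of all genes tested in spleen 0.36. The share found among the members was not tested.

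The members, 4 lists of 112 further genes (1 of them on 2 lists) and 9 lists of 102 markers were chosen with earlier results of these data known. The text names, from each list, the genes called with the smallest p (ties at the smallest permutation p by r), the most abundant member of each role, and the 10 genes most like Alas2; other members were named for their role or for an extreme value. Gene positions are from GENCODE M21 on GRCm38, matched by Ensembl ID, and promoters from RefSeq. No library pair differed by less than sampling noise. Ahsp is not analysed here, and the results of some genes are not reported here.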

Additional observations from a re-analysis of the deposited data

Results flagged for a closer look

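In 32 of the 66 pairs of a member and a spleen genotype, the highest spleen lay apart from the others by Dixon's criterion for the size of the group. For normally distributed values chance gives about 5%. The criterion was applied to CPM and not to log2 CPM, which lets high spleens stand apart more readily than low ones, so the 5% need not hold. The members move together, so these are not independent. Knockout spleen 4 stood apart for 13 members, with these CPM: Hba-a1 37280.5, Hba-a2 159585, Alad 433, Urod 483, Ppox 282, Rhd 256, Kel 193, Icam4 18.6, Gata1 92.1, Nfe2 446, Epor 61.7, Car1 252 and Tspo2 181. Wild-type spleen 4 stood apart for 19 members, with these CPM: Alas2 1199, Alad 249.6, Urod 289, Ppox 171, Fech 170.0, Slc4a1 438, Epb42 91.4, Sptb 303, Ank1 575, Tmod1 16.2, Rhag 37.9, Rhd 155, Kel 103, Gata1 45.3, Nfe2 247, Hemgn 134, Car2 409, Trim10 68.3 and Tspo2 95.7. Both spleens carry the number 4, and no spleen stood apart at the low end, where the CPM scale makes this less likely.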

How the results depend on the processing

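No member was called in spleen under any alternative, and the smallest adjusted p per setting ran from 0.183 to 0.630. The signs were less firm, and the cause was not tested. Tfrc was at -0.041 with voom. Without knockout spleens 4, 6 and 9, Tfrc was at -0.29, Alas2 at -0.010, Car2 at -0.10, Ermap at -0.17 and Ank1 at -0.12. Without knockout 4 and 6 and wild-type 4 (chosen after seeing the data), Tfrc was at -0.32, Ermap at -0.13 and Ank1 at -0.086. With Alas2 as a covariate (also chosen afterwards), Tfrc was at -0.095, Car2 at -0.034, Ermap at -0.11 and Ank1 at -0.19. In dendritic cells after LPS, members called higher were 5 in wild-type and 3 in labelled knockout cells with voom, and 2 in the latter with DESeq2. Members called lower in labelled knockout cells were 6 without composition factors and 1 when only the libraries compared were fitted, and in wild-type cells 3 with the replicate number as a block. Leaving out single spleens gave up to 0.65 for Tfrc (without knockout 9) and, without wild-type 4, 0.72 for Ermap and 0.82 for Ank1. Leaving out single dendritic cell libraries gave 3 to 5 members lower and 2 higher in wild-type cells, and 2 to 3 lower and 1 to 3 higher in labelled knockout cells. Nfe2 lost its call in wild-type cells with the block (adjusted p = 0.0514) and in labelled knockout cells when only the libraries compared were fitted (adjusted p = 0.0503), Fech in both settings in wild-type cells, and Urod in both in labelled knockout cells. Correlations with Alas2 passed for 31 to 32 members with single spleens left out. They passed for 1 member in wild-type and 12 in knockout spleens alone, where fewer samples were tested. The smallest p that can be reached differs between those 2 sets, so their counts are not compared. Same-numbered spleens correlated at -0.078 to 0.29 in their deviations and dendritic cell libraries at -0.089 to 0.075, so the numbers were not taken as pairs; 3 of 9 spleen pairs correlated best with their own number. With the replicate block the median of the members in spleen was 0.12, 30 of 33 were above 0, and over all genes 2 were called higher and 1 lower.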

Other observations

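The ratio of Hba-a2 to Hba-a1, 2 near-identical genes for the same chain, separated the spleens by their number. It was 3.92 to 4.66 (median 4.28, n = 10) in spleens numbered 1 to 5 and 3.41 to 3.88 (median 3.65, n = 9) in those numbered 6 to 10, with both genotypes in each set and no overlap. The split was chosen after these values were seen, and the labels give no batch. Within the sets, r of the other 32 members with Alas2 was 0.81 to 0.97 (median 0.91) and 0.63 to 0.96 (median 0.87). With the set as a covariate the median log2 fold change of the members between genotypes was 0.50, with 33 of 33 above 0 and 0 called.

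Car1 was not the only gene counted in steps in dendritic cells. Of the 13038 genes with over 100 counts in a dendritic cell library, 77 (0.591%) had counts with a common divisor over 2 in all 12 libraries.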
